A study of Mus musculus with 28 samples.

Results

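The endothelin system was followed through 6 genes, chosen by name from the 53342 Ensembl gene identifiers of the count tables. Ednrb and Ednra encode the receptors, Edn1 and Edn3 encode ligands, and Ece1 and Ece2 encode converting enzymes. The genes were picked with knowledge of how far cKO and Ctrl cortex differed at P17 and at P24 and of the change between these ages, so the bulk values are given below as a description, without a test. The TRAP-Seq libraries came from other mice, and their comparisons were tested across all genes. Earlier results of these libraries were also known when the genes were chosen, so their p-values are not independent evidence.

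The libraries were made from cortex of mice with a conditional knockout in astrocytes and of sex-matched littermate controls. The sex of each mouse and which mice were littermates are not given in the sources used here. The cKO mice carried mGFAP-Cre and loxP/loxP alleles of the targeted gene, and the Ctrl mice carried loxP/loxP or loxP/+ alleles without a named driver, so that at least 1 loxP allele was shared by every bulk mouse. Bulk RNA-Seq was made from 4 cKO and 4 Ctrl mice at P17 and from 4 cKO and 4 Ctrl mice at P24, each library from the cortex of 1 mouse on the C57BL/6J background. In TRAP-Seq, an EGFP/Rpl10a ribosomal tag was switched on by mGFAP-Cre. Each of 3 cKO and 3 Ctrl mice at P24 gave an Input library, made from the supernatant of the spun lysate, and an IP library. The IP library held RNA pulled down with tagged ribosomes. The IP libraries are therefore enriched for RNA of cells in which this driver was active, whether or not all of them are astrocytes. In Ctrl mice most neuron, endothelial and microglia markers were lower in IP than in Input, and not lost. Of 6 mural markers (pericyte and smooth muscle) tested, 3 were higher and 2 lower, and the 1 melanocyte marker tested was higher. Over all genes 35.3% were higher and 35.7% lower. The neuron markers summed to 2107 to 2588 CPM in Ctrl IP and 4130 to 4667 CPM in Ctrl Input, and the source of the RNA that remained was not tested. A low level in IP need not come from tagged cells. The TRAP-Seq Ctrl mice are given as f/f or f/+ at the same locus, and their driver is not stated in the sources used here. The tag needs the driver, and 6 astrocyte markers summed to 6712 to 8942 CPM in the 3 Ctrl IP libraries. In Ctrl Input the sum was 545 to 612 CPM, so tagged ribosomes were recovered from these Ctrl mice. The bulk Ctrl mice had no named driver, so the Ctrl groups of both experiments may differ in it.

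Endothelins are short vasoactive peptides that are cut from longer precursors by membrane metalloproteases of the ECE family. They act through a pair of G protein-coupled receptors. The endothelin A receptor is best known from vascular smooth muscle, where it drives contraction, and the endothelin B receptor is found on endothelium and, in the brain, on astrocytes, where it is a known feature of reactive cells. Endothelin 1 is made by endothelium and by injured glia, and endothelin 3 acts mainly through the B receptor.

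Among the endothelin system genes tested, the receptor genes were the 2 most enriched in IP over Input. The 250 bases before the RefSeq start of each are therefore shown on its own strand in GRCm38.p6. The Ednrb window, chr14:103843702-103843951 on the minus strand, shares 0 bases with the GENCODE exons of Ednrb and lies within an intron of its longest transcript. The Ednra window, chr8:77724453-77724702 on the minus strand, shares 12 bases with a GENCODE exon of Ednra. Capitals mark a CCAAT box (CCAAT) or the core of an NFI site (TTGGC), both read on either strand. The matches do not overlap.
Ednrb: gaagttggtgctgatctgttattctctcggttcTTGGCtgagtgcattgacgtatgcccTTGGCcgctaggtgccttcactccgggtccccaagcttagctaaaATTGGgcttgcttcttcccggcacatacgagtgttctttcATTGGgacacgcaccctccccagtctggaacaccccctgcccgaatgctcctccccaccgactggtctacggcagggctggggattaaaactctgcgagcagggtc
Ednra: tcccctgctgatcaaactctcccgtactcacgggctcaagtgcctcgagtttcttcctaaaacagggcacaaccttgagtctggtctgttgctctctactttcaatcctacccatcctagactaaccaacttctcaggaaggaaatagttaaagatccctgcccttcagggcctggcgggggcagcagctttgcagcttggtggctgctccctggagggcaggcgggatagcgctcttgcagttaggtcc
The Ednrb window held 2 NFI cores, which began 217 and 191 bases before the start, and 2 CCAAT boxes, which began 146 and 106 bases before it. The Ednra window held neither. Of 32851 RefSeq windows of this length, 41.5% held an NFI core and 33.8% a CCAAT box. A STAT site (TTCNNNGAA), an AP-1 site (TGANTCA), a SOX site (ACAANG) and a GC box (GGGCGG) were found in neither receptor window, against 7.02%, 6.75%, 36.3% and 32.7% of all windows. These matches describe letters only.

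Values are CPM, the counts of a gene taken relative to the total of its library and scaled by TMM factors. Bulk libraries held between 8855488 and 14575302 counts on genes and TRAP-Seq libraries between 18433087 and 27242445, so that 3 counts, taken as the detection floor, came to between 0.206 and 0.339 CPM and between 0.110 and 0.163 CPM. Levels are compared within the bulk and within the TRAP-Seq tables only, since the libraries were prepared differently. The summed level of 6 endothelial markers was between 103 and 147 CPM in bulk cortex and between 7.14 and 10.3 CPM in Input libraries.

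Ednrb (ENSMUSG00000022122, chr14:103814625-103844402, minus strand), the endothelin B receptor gene, had the largest difference of the 6 genes between the genotypes in P24 cortex and in Input libraries, while Edn3 differed more at P17 and Edn1 slightly more in IP libraries on the log2 scale. In P17 cortex it lay at 40.9, 44.8, 39.9 and 44.8 CPM in the Ctrl mice and at 48.3, 49.9, 53.4 and 55.9 CPM in the cKO mice. The lowest cKO mouse stood above the highest Ctrl mouse, and the fitted log2 fold change was 0.29 (SE 0.06), a fold of 1.23.
In P24 cortex it lay at 30.0, 31.6, 28.5 and 38.5 CPM in the Ctrl mice and at 59.2, 86.7, 81.8 and 76.5 CPM in the cKO mice. The groups again did not overlap, with 1 cKO mouse below the other 3, and the log2 fold change was 1.24 (SE 0.12), a fold of 2.37. Leaving out that mouse, cKO replicate 1, gave 1.35. The knockout difference was thus larger at P24 than at P17 by 0.95 (SE 0.15) on the log2 scale, and leaving out each library in turn gave values between 0.89 and 1.05. Ednrb in Ctrl mice was 42.6 ± 2.59 CPM (SD, n = 4) at P17 and 32.1 ± 4.44 CPM (SD, n = 4) at P24, whereas in cKO mice it was 51.9 ± 3.43 CPM at P17 and 76.1 ± 11.98 CPM at P24. The ages came from separate tables, so age and table cannot be told apart in these levels.

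Among all genes tested in bulk cortex, 1.72% passed an adjusted p under 0.05 at P24, 0.0943% at P17 and 0.0470% in the difference between the ages. With the replicate number as a block, the number of all genes passing at P17 rose from 20 to 109.

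**Figure D1:**
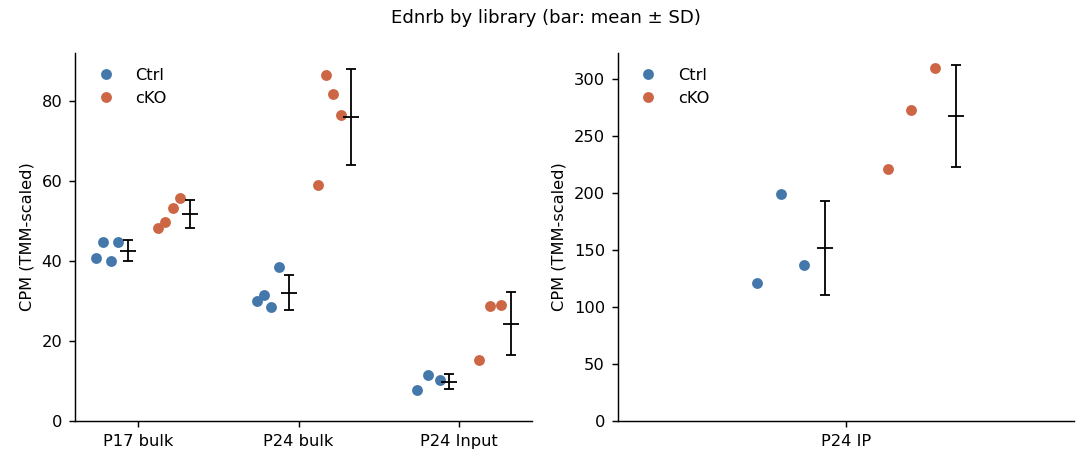
Ednrb in every library as TMM-scaled CPM, with P17 bulk, P24 bulk and P24 Input on the left and P24 IP on the right, where the axis runs higher. Each point is 1 library (blue, Ctrl; orange, cKO) and the black bar is the mean ± SD. In each pair of groups all cKO points lie above all Ctrl points, with the lowest cKO point of P24 bulk at 59.2 CPM and of Input at 15.2 CPM. The share of all genes whose groups lie apart was not counted.

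The TRAP-Seq mice were separate from the bulk mice. In IP libraries Ednrb lay at 121, 199 and 137 CPM in Ctrl mice and at 221, 273 and 310 CPM in cKO mice. The groups did not overlap, and Ednrb rose in cKO by 0.84 on the log2 scale (SE 0.18, edgeR quasi-likelihood adjusted p = 0.00825), a fold of 1.79. Among all genes 20.0% passed in this comparison and 11.6% rose, so a call here was common. The log2 fold change of Ednrb stood at the 96.1 percentile of the 23864 genes tested, whose median was -0.01. A fit of all 12 TRAP-Seq libraries together gave 0.83 with an adjusted p of 0.062, which no longer passed.

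In Input libraries Ednrb lay at 7.81, 11.4 and 10.3 CPM in Ctrl mice and at 15.2, 28.8 and 29.0 CPM in cKO mice. The groups did not overlap, the log2 fold change was 1.30 (SE 0.28), and the edgeR quasi-likelihood adjusted p was 0.287, so the difference did not pass. Its unadjusted p was 0.00132, in a comparison in which 26 genes or 0.109% passed and 960 had an unadjusted p under 0.05. Without cKO replicate 1, the lowest of the cKO libraries, the log2 fold change was 1.56 with an edgeR adjusted p of 0.00357. Leaving out the lowest library of the higher group widens the difference by design. Of the 6 fits that left out 1 library only this 1 passed, and the adjusted p reached 0.998. With all libraries DESeq2 gave an adjusted p of 0.00444. Of 8 settings other than leaving out a library, 4 passed, and the adjusted p reached 0.506.

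Astrocyte markers were read beside Ednrb, since a change in astrocyte share and a change in Ednrb RNA per astrocyte cannot be told apart in whole cortex. The summed level of the 6 astrocyte markers Aldh1l1, Aldoc, Slc1a3, Gja1, Sox9 and Gjb6 ranged over 1135 to 1196 CPM in P24 Ctrl and 1076 to 1277 CPM in P24 cKO cortex, and over 1058 to 1207 CPM in P17 Ctrl and 1101 to 1279 CPM in P17 cKO cortex. These ranges overlapped at both ages, but the markers moved apart at P24. Aldh1l1, a folate enzyme gene, was 51.6 ± 4.42 CPM in P24 Ctrl and 117 ± 26.2 CPM in P24 cKO cortex (SD, n = 4 each) and rose by 1.18 on the log2 scale (adjusted p = 0.000617), a fold of 2.27 beside the 2.37 of Ednrb. The transcription factor gene Sox9 rose by 0.49 (adjusted p = 0.0225) and Slc1a3 fell by 0.40 (adjusted p = 0.0166), and Aldoc, the largest part of the sum, was at 0.039. At P17 0 of 6 passed. Over all genes 1.72% passed at P24 and 0.0943% at P17. The part of these marker differences in the bulk Ednrb values was not tested. Per 1000 CPM of these markers, Ednrb was 28.0 ± 4.27 CPM in P24 Ctrl and 66.3 ± 14.5 CPM in P24 cKO cortex (SD, n = 4 each). In IP libraries the marker sums also overlapped, at 6712 to 8942 CPM in Ctrl and 6135 to 8455 CPM in cKO mice. There 2 markers fell in cKO, the glutamate transporter gene Slc1a3 by 0.95 and the connexin gene Gjb6 by 0.84 on the log2 scale (adjusted p = 0.00488 and 0.00376). Of the markers 0 of 6 rose, where 8.42% of all genes fell and 11.6% rose.
Per 1000 CPM of the markers, Ednrb was 19.7 ± 5.45 CPM in Ctrl IP and 38.8 ± 4.999 CPM in cKO IP libraries (SD, n = 3 each). In Input libraries, by contrast, the marker sum was 545 to 612 CPM in Ctrl and 982 to 1075 CPM in cKO mice, without overlap. There 1 of 6 markers, Aldoc, rose (0.92, adjusted p = 0.0485), where 0.109% of all genes passed. Per 1000 CPM of the markers Ednrb was 14.3 to 18.6 CPM in Ctrl and 15.4 to 28.3 CPM in cKO Input libraries, which overlapped. The part of this marker difference in the Input result was not tested.

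Ednrb was also the member most enriched on tagged ribosomes. In Ctrl mice it was 152 ± 41.2 CPM in IP and 9.83 ± 1.84 CPM in Input libraries (SD, n = 3 each), which is 3.92 on the log2 scale (SE 0.20, adjusted p = 1.44e-08) and a fold of 15.1. In cKO mice the value was 3.44 (SE 0.30, adjusted p = 3.56e-05). The 6 astrocyte markers were all higher in Ctrl IP than in Ctrl Input, with log2 fold changes between 2.40 and 4.08 and a median of 3.78, so Ednrb lay within their range. All 6 endothelial markers were lower, with a median of -1.17, although the B receptor is also known from endothelium. Of the neuron, microglia, oligodendrocyte, oligodendrocyte precursor, meningeal fibroblast and choroid plexus markers tested, 5 of 6, 5 of 5, 4 of 5, 3 of 3, 2 of 3 and 2 of 2 were lower and 0 were higher. Over all genes 35.7% were lower and 35.3% higher in this comparison. Of the 3 markers of melanocytes, another cell type that uses this receptor, the 1 tested in Ctrl mice was Pmel. It was higher in Ctrl IP, at 2.26 ± 0.23 CPM against 0.42 ± 0.03 CPM in Ctrl Input (2.37 on the log2 scale, SE 0.27, adjusted p = 7.38e-06). Dct was not higher, at 0.24 ± 0.15 CPM in Ctrl IP and 0.30 ± 0.13 CPM in Ctrl Input (SD, n = 3 each). Mlana had at most 3 counts in every library. The sum of the 3 markers was 0.706 to 0.831 CPM in Ctrl Input and 2.21 to 2.95 CPM in Ctrl IP libraries, and its part in the Ednrb result was not tested. The IP-to-Input difference of Ednrb did not differ detectably between genotypes (interaction -0.47, SE 0.36, adjusted p = 0.799). In that interaction the astrocyte markers had a median of -0.83, with 0 of 6 passing, and 15 of all genes or 0.0582% passed, with 2252 at an unadjusted p under 0.05.

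Ednra (ENSMUSG00000031616, chr8:77663031-77724464, minus strand), the endothelin A receptor gene, was much lower than Ednrb. In P17 cortex it lay at 5.31, 5.85, 6.51 and 4.65 CPM in Ctrl and at 6.63, 4.75, 4.84 and 5.18 CPM in cKO mice. In P24 cortex it lay at 3.22, 4.42, 5.18 and 4.43 CPM in Ctrl and at 4.80, 5.75, 5.39 and 4.69 CPM in cKO mice. The groups overlapped at both ages, and the log2 fold changes were -0.05 (SE 0.16) at P17 and 0.26 (SE 0.15) at P24. Their difference was 0.31 (SE 0.22). Per length, Ednrb exceeded Ednra 9.84-fold ± 2.19 in P24 Ctrl and 18.9-fold ± 2.17 in P24 cKO cortex (SD, n = 4 each).

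Ednra was enriched in IP libraries as well. It lay at 0.415, 0.941 and 0.807 CPM in Ctrl Input and at 2.76, 4.36 and 4.77 CPM in Ctrl IP libraries, all IP values above all Input values, with a log2 fold change of 2.44 (SE 0.32, adjusted p = 2.58e-05). In cKO mice the enrichment was 2.14 (SE 0.33, adjusted p = 0.000683). The Ctrl value lay within the range of the astrocyte markers, 2.40 to 4.08, at its low end. Mural cells, the pericytes and smooth muscle in which this receptor is best known, gave a mixed picture in the same comparison in Ctrl mice. Of 6 mural markers tested, the contractile genes Acta2 and Tagln and the growth factor receptor gene Pdgfrb rose (2.47, 1.14 and 1.01), Myh11 and Vtn fell (by 1.48 and 1.42), and Rgs5 was at -0.15. The sum of the 8 listed mural markers was 21.1 to 27.5 CPM in Ctrl Input and 26.4 to 37.4 CPM in Ctrl IP libraries, and its part in the Ednra result was not tested. Ednra also shares 91 exonic bases with 4933431K23Rik on the opposite strand. Between genotypes, Ednra was at 4.55, 4.59 and 7.26 CPM in cKO IP libraries, which overlapped with Ctrl (0.49, SE 0.24, adjusted p = 0.186). In Input it was 0.76 (SE 0.41, adjusted p = 0.812).

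Edn1 (ENSMUSG00000021367, chr13:42301476-42307990, plus strand), the gene of endothelin 1, was low in bulk cortex and close to the detection floor in TRAP-Seq libraries. In P24 cortex it lay at 1.97, 1.99, 1.73 and 1.53 CPM in Ctrl and at 1.53, 1.04, 1.18 and 1.49 CPM in cKO mice. The cKO values lay low, 3 of 4 under every Ctrl value, and the log2 fold change was -0.45 (SE 0.21). At P17 the Ctrl values of 1.83, 3.06, 1.32 and 1.82 CPM and the cKO values of 1.09, 2.16, 2.26 and 1.55 CPM overlapped (-0.19, SE 0.30), and the difference between the ages was -0.26 (SE 0.37).
In IP libraries Edn1 rested on 5, 6 and 9 counts in Ctrl mice, or 0.189, 0.230 and 0.355 CPM, and on 10, 11 and 12 counts in cKO mice, or 0.429, 0.485 and 0.468 CPM. The cKO libraries were all above the Ctrl libraries, but the log2 fold change of 0.85 (SE 0.42) did not pass (adjusted p = 0.179). In Input libraries Edn1 had between 5 and 12 counts, too few to be tested between genotypes or against IP in Ctrl mice. In cKO mice IP and Input did not differ detectably (0.42, SE 0.43, adjusted p = 0.435). Edn1 shares 35 exonic bases with the antisense gene Gm47118, and whether the counting used strand is not given in the sources used here.

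Edn3 (ENSMUSG00000027524, chr2:174760619-174784042, plus strand), the gene of endothelin 3, was a little higher than Edn1 in CPM. At P17 it lay at 2.96, 5.01, 3.09 and 3.07 CPM in Ctrl and at 2.28, 2.81, 3.34 and 2.28 CPM in cKO mice. At P24 it lay at 3.66, 3.09, 2.55 and 2.54 CPM in Ctrl and at 2.80, 2.80, 2.63 and 1.49 CPM in cKO mice. The groups overlapped at both ages and the cKO means were the lower, with log2 fold changes of -0.40 (SE 0.23) at P17 and -0.28 (SE 0.22) at P24 and a difference between the ages of 0.11 (SE 0.32). In TRAP-Seq libraries Edn3 held between 9 and 28 counts. It did not differ detectably between genotypes in IP (0.54, SE 0.44, adjusted p = 0.429) or Input libraries (0.28, SE 0.40, adjusted p = 0.860), nor between IP and Input in Ctrl (-0.37, SE 0.42, adjusted p = 0.449) or cKO mice (-0.12, SE 0.41, adjusted p = 0.820). Unlike the receptors, neither ligand was thus shown to be enriched on tagged ribosomes.

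Ece1 (ENSMUSG00000057530, chr4:137862237-137965229, plus strand) encodes the main endothelin-converting enzyme, which releases the active peptide. It varied little in bulk cortex. At P17 it lay at 68.0, 64.2, 61.2 and 69.6 CPM in Ctrl and at 69.5, 68.1, 67.9 and 71.4 CPM in cKO mice, and at P24 at 55.2, 56.4, 63.7 and 56.3 CPM and at 54.8, 61.6, 57.8 and 61.7 CPM. The groups overlapped, with log2 fold changes of 0.08 (SE 0.06) at P17 and 0.03 (SE 0.06) at P24. Against the receptors, Ece1 was depleted on tagged ribosomes. In Ctrl mice it was 26.1 ± 6.25 CPM in Input and 11.1 ± 2.52 CPM in IP libraries (SD, n = 3 each), which is -1.28 on the log2 scale (SE 0.20, adjusted p = 0.000121), and in cKO mice it was -1.17 (SE 0.24, adjusted p = 0.00319). Between genotypes it did not differ detectably in IP (-0.13, SE 0.19, adjusted p = 0.698) or Input libraries (-0.24, SE 0.24, adjusted p = 0.828).

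Ece2 (ENSMUSG00000022842, chr16:20629828-20646485, plus strand), a converting enzyme active at acidic pH, has counts that are uncertain. It shares 2937 exonic bases on the same strand with the protein-coding gene Gm49333 (ENSMUSG00000115293), and between 3.43% and 21.1% of the counts given to the pair in a library were assigned to Ece2. In bulk cortex the Ece2 groups overlapped, between 15.9 and 18.4 CPM in Ctrl and 12.1 and 17.2 CPM in cKO mice at P17 and between 15.5 and 18.9 CPM and 13.3 and 17.8 CPM at P24. The log2 fold changes were -0.17 (SE 0.11) and -0.06 (SE 0.10).
In IP libraries Ece2 lay at 6.28, 6.28 and 6.50 CPM in Ctrl and at 4.21, 4.54 and 4.49 CPM in cKO mice. The groups did not overlap, and Ece2 fell in cKO by 0.50 on the log2 scale (SE 0.14, adjusted p = 0.0287), in a comparison in which 8.42% of all genes fell. The call was lost without Ctrl replicate 1, 2 or 3 or cKO replicate 1 or 2 (adjusted p between 0.0696 and 0.0825), and with all TRAP-Seq libraries in one fit (0.0741). Gm49333 was lower in cKO IP libraries too, though its test did not pass (-0.17, SE 0.09, adjusted p = 0.209). In Input libraries Ece2 was at 0.06 (SE 0.19, adjusted p = 0.947).
IP and Input did not differ detectably for Ece2 in Ctrl mice (-0.11, SE 0.16, adjusted p = 0.565), while Ece2 was lower in IP in cKO mice (-0.68, SE 0.19, adjusted p = 0.0135), a call lost without Input replicate 2 (adjusted p = 0.0544) or IP replicate 1 (0.0530). The difference between the genotypes, tested directly, was -0.56 (SE 0.22, adjusted p = 0.482) and did not pass.

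**Figure D2:**
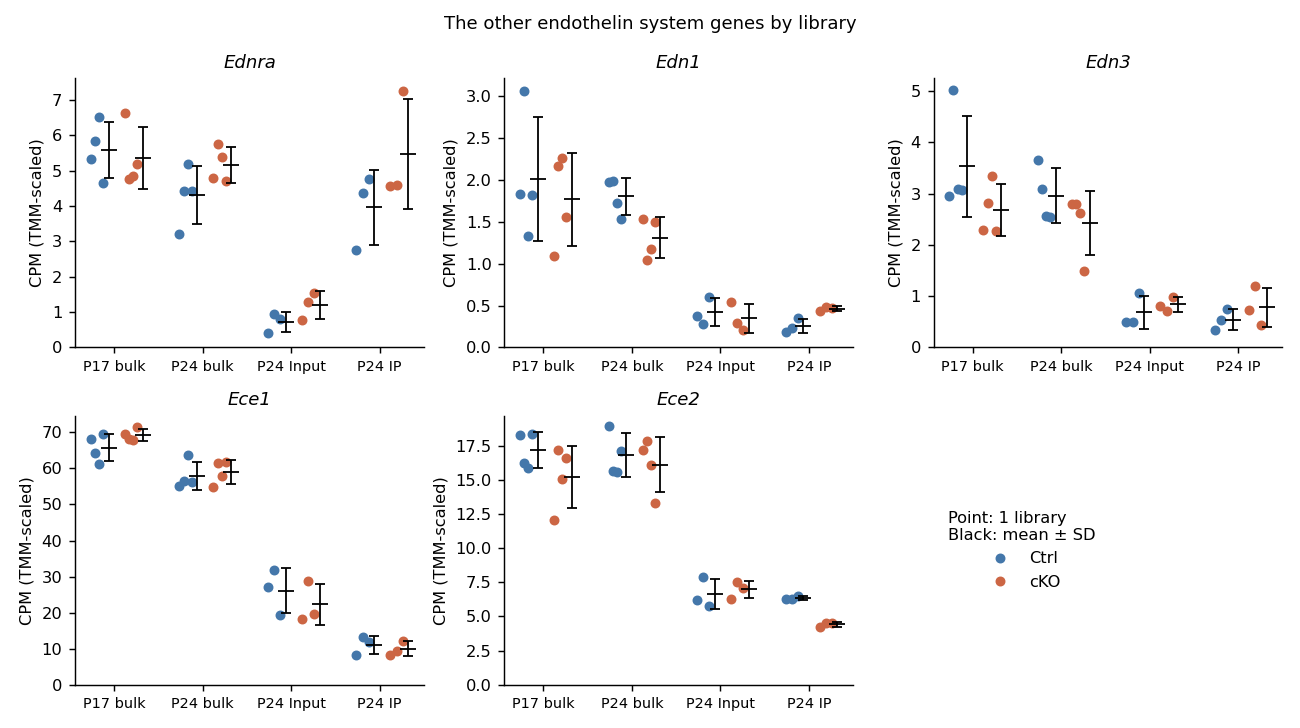
TMM-scaled CPM of Ednra, Edn1, Edn3, Ece1 and Ece2 in every library of P17 bulk, P24 bulk, P24 Input and P24 IP, each panel with its own axis from 0. Each point is 1 library (blue, Ctrl; orange, cKO) and the black bar is the mean ± SD. The cKO and Ctrl points overlap in every pair except Edn1 and Ece2 in IP libraries, where the 3 cKO values of Ece2 lie between 4.21 and 4.54 CPM. The share of all genes whose groups lie apart was not counted, so such a gap is a description only.

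Over the IP comparison of genotypes, 2 of the 6 genes passed, Ednrb higher and Ece2 lower, against 20.0% of all genes. In Input libraries 0 of 5 tested passed, against 0.109% of all genes. For IP against Input, 3 of 5 tested genes passed in Ctrl mice, where 71.0% of all genes did, and 4 of 6 in cKO mice, where 56.3% did. Both receptors were higher in IP in both genotypes and Ece1 was lower in both. In the test of whether the IP-to-Input difference changed with genotype, 0 of 6 passed, against 0.0582% of all genes.

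**Figure D3:**
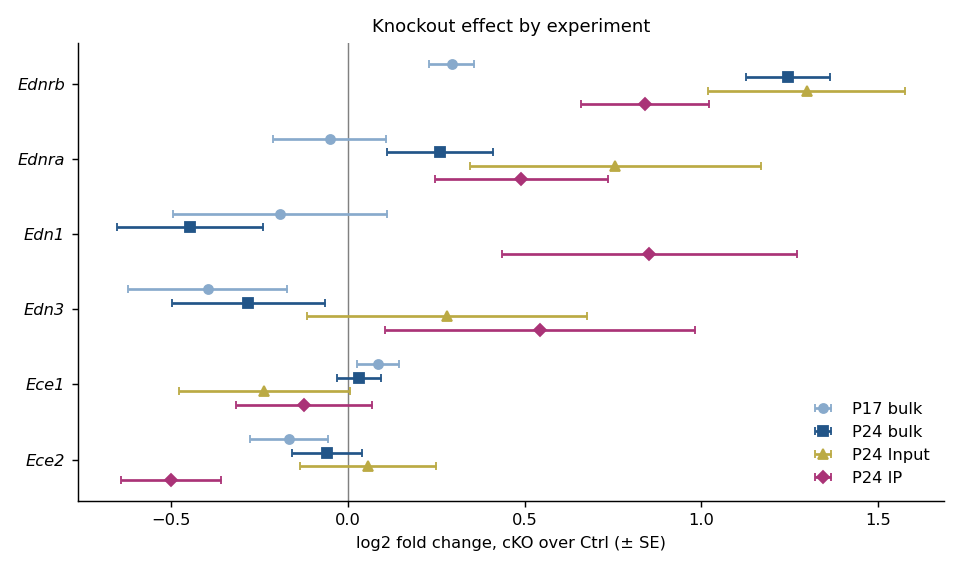
Log2 fold change of cKO over Ctrl for each gene in P17 bulk, P24 bulk, P24 Input and P24 IP libraries, with the standard error as a bar and a line at 0. Ednrb lies right of 0 in the 4 experiments, from 0.29 at P17 to 1.30 in Input, whereas Ece1 lies between -0.24 and 0.08; Edn1 was not tested in Input.

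**Figure D4:**
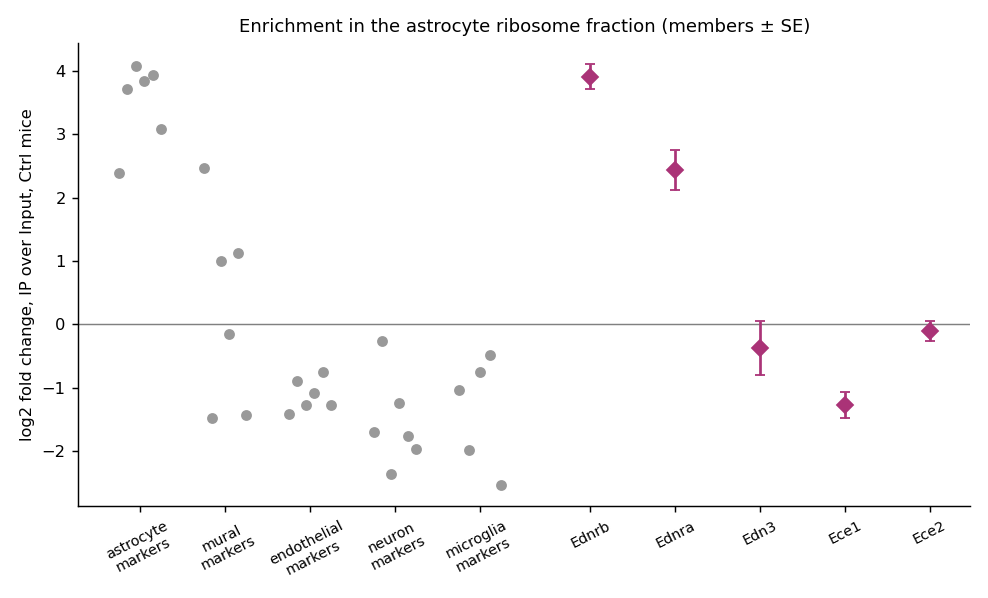
Log2 fold change of IP over Input in Ctrl mice for 5 endothelin system genes (diamonds, ± SE) beside the markers of 5 cell types (grey points, 1 per gene tested). Ednrb at 3.92 lies among the astrocyte markers. Ednra at 2.44 lies near both the lowest astrocyte marker (2.40) and the highest mural marker (2.47). Ece1 at -1.28 lies among the endothelial, neuronal and microglial markers.

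The order of the genes was compared per kilobase of exon within each group. In P24 Ctrl cortex Ece1 came first at 10.9 ± 0.74 CPM per kb, then Ednrb at 7.53 ± 1.04 and Ece2 at 3.29 ± 0.31, each apart from its neighbours in all libraries, and then Edn1, Ednra and Edn3 between 0.72 and 0.84 CPM per kb, which overlapped. In P24 cKO cortex Ednrb came first at 17.8 ± 2.81 CPM per kb, ahead of Ece1 at 11.1 ± 0.63 in every library, so the leading genes changed places. At P17 Ece1 led in Ctrl cortex, at 12.4 ± 0.71 against 9.99 ± 0.61 CPM per kb for Ednrb without overlap, while in cKO cortex the leading genes overlapped, at 13.1 ± 0.30 and 12.2 ± 0.81. In the IP libraries Ednrb led by far, at 35.7 ± 9.67 CPM per kb in Ctrl and 62.8 ± 10.5 in cKO mice, against 2.10 ± 0.47 and 1.89 ± 0.38 for Ece1.

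Of the ligand and peptidase relatives of the system, 2 were hardly detected and none of the rest passed the test between genotypes. Edn2, the third ligand gene, and Kel, which encodes a protease that can cut endothelin 3, had at most 3 counts in any library and were not tested. The metalloprotease genes Mme (neprilysin, which degrades endothelin), Ecel1, Mmel1 and Phex were tested, and 0 of 4 passed between the genotypes in IP or Input libraries, with log2 fold changes from -0.60 to 0.43 in IP. In IP against Input of Ctrl mice 3 of 4 fell, Ecel1 by 2.20 (adjusted p = 7.15e-06), Mme by 1.41 (0.000106) and Mmel1 by 1.09 (0.00734), against 35.7% of all genes that were lower.

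The G proteins, phospholipases, kinases and regulators that couple to these receptors gave few differences between genotypes. In IP libraries 3 of 22 tested rose and 1 fell, with a median of -0.10, beside a median of -0.01 and 20.0% passing over all genes. Gnaq and Gna12, G protein alpha subunits through which endothelin receptors can signal, rose by 0.32 (adjusted p = 0.0263) and 0.39 (0.0344). Rgs5, which shortens G protein signals and is also one of the mural markers used above, rose by 0.88 (0.0415), and the arrestin gene Arrb1 fell by 0.52 (0.0130). In Input libraries 0 of 23 passed. In IP against Input of Ctrl mice 6 were higher and 16 lower of 23, where 35.3% of all genes were higher and 35.7% lower, led by Gna13 (2.86, adjusted p = 2.87e-09), Itpr1 (-2.12), Rgs4 (-1.64), Gnai2 (1.77) and Gnai3 (2.07), the adjusted p of the last 4 being 2.80e-08, 3.12e-08, 4.23e-08 and 5.44e-08.

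Genes that endothelin is known to change in cultured astrocytes were read as a further list. In IP libraries 4 of 14 tested rose in cKO and 2 fell, with a median of 0.23, where 11.6% of all genes rose and 8.42% fell. The cyclin gene Ccnd1 rose by 1.52 (adjusted p = 1.12e-05), the intermediate filament gene Gfap by 0.76 (0.00140), the vessel growth factor gene Angpt1 by 0.79 (0.00171) and the protease inhibitor gene Timp1 by 1.54 (0.0344). The glutamate transporter genes Slc1a3 and Slc1a2 fell by 0.95 (0.00488) and by 0.71 (0.00927). In Input libraries 0 of 15 passed, against 0.109% of all genes, and in the interaction of fraction and genotype 1 of 15 did, Ccnd1 (1.37, adjusted p = 0.0467), against 0.0582%. In bulk cortex, as a description, Gfap was at a log2 fold change of 1.03 at P17 and 2.51 at P24. Ccnd1 was at 1.04 at P24. At that age 2 of 14 genes of the list passed as higher and 2 as lower. The median of the list was 0.13, and 1.72% of all genes passed. At P17 1 of 14 was higher and 0 were lower, with a median of 0.06, where 0.0943% of all genes passed. Whether endothelin acts on any of these genes here was not measured.

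Ednrb followed certain genes closely from library to library. Over the 16 bulk libraries, centred within age, the genes most like it among 13178 were Dhrs1 (Pearson r = 0.976), Gm26668 (0.969), Cfap53 (0.962), Gfap (0.962) and the tetraspanin gene Cd9 (0.960). These libraries share genotype, age table and cortex, so the likeness holds the genotype difference. Over the 12 TRAP-Seq libraries they were the podoplanin gene Pdpn (0.996), the water channel gene Aqp4 (0.995), Gm2a (0.994), Abhd4 (0.991) and Emp2 (0.991), where the points share fraction, mouse and genotype. For the other members the highest r over bulk libraries was lower, Asrgl1 for Edn3 (0.867), Usp21 for Edn1 (0.806), Zfpm1 for Ece1 (0.805), Plcd1 for Ednra (0.804) and Rhbdl3 for Ece2 (0.772).
After them came Maob (0.864), Itih5 (0.863), Aamdc (0.772) and Ints3 (0.762) for Edn3. For Edn1 they were Fsd1 (0.797), Brap (0.770), Mtmr7 (0.767) and Luc7l3 (0.751), and for Ece1 Ndst1 (0.801), Arhgef15 (0.798), Tmem94 (0.786) and Kcnip3 (0.770). Ednra was followed by Tbc1d14 (0.771), Pald1 (0.769), Hebp1 (0.740) and Zfp839 (0.740), and Ece2 by Nat10 (0.768), Zfp37 (0.754), Tiam1 (0.744) and Otof (0.744). All these genes were picked as the highest among 12945 to 13179 genes over 12 or 16 libraries. The r that such a pick would reach by chance was not tested.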

How the data were processed

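Reads were mapped to mm10 with STAR, and the authors deposited the unnormalized count of reads on each gene, in separate tables for P24 bulk, P17 bulk and TRAP-Seq libraries. How reads were counted, with or without strand, and on which annotation is not given in the sources used here. Bulk cDNA was primed with oligo-dT, and TRAP-Seq RNA was selected on oligo-dT beads. The 2 bulk tables use the same column names, so the age was taken from the name of the table and checked against the study's lists of changed genes. GENCODE M21 gave symbols and positions for 53237 of 53342 identifiers, and 1 identifier cut short in the P24 table (at most 0.000342% of a library) was left out.

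The groups were fitted in R 4.3.3 with edgeR 4.0.16 (TMM, filterByExpr with a minimum count of 10, glmQLFit and glmQLFTest, two-sided, Benjamini-Hochberg over all genes tested, threshold 0.05). The standard error is the log2 fold change divided by the root of the quasi-likelihood F. Likeness between genes was Pearson's r of log2 CPM (prior count 2) among genes whose mean reached 3, and the 5 highest are named. The pipeline was tested on simulated data. The 6 genes were named in every comparison, with counts for 3 pathway lists and at most 5 of their called genes per comparison. Members, lists and markers were chosen with earlier results of these data known. The values of the targeted gene are not reported here. Floors cover counting error only. Over 36 replicate pairs the chi-square per degree of freedom was 2.79 to 89.8, so no library was a copy of another of its group. Libraries of different groups were not compared in this way. Alternatives were the likelihood ratio test, DESeq2 1.42.0, RLE factors, library size alone, other filters, a replicate block, 1 fit of all TRAP-Seq libraries, and leaving out each library.

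Same-numbered Input and IP libraries came from the same mouse, as the labels and the study's methods give. The reported fits of IP against Input and of the interaction did not use this pairing. It entered only in the replicate block. Same-numbered cKO and Ctrl libraries correlated in their deviations from the group means with r of 0.167 to 0.380 at P17, over 0.1 for every pair, so they were taken as pairs in the block there, and with 0.0289 to 0.219 at P24, 0.0361 to 0.118 in IP and -0.0338 to 0.101 in Input libraries.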

Additional observations from a re-analysis of the deposited data

Results flagged for a closer look

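Within groups of 4 bulk libraries, a single library stood apart from the other 3 in 3 of 24 groups looked at, by Dixon's ratio of gap to range above its 95% critical value, where chance gives about 1 in 20. Edn3 was at 5.01 CPM in 1 P17 Ctrl library and between 2.96 and 3.09 CPM in the other 3 (ratio 0.938). Edn3 was at 1.49 CPM in 1 P24 cKO library and between 2.63 and 2.80 CPM in the other 3 (ratio 0.867). Ece1 was at 63.7 CPM in 1 P24 Ctrl library and between 55.2 and 56.4 CPM in the other 3 (ratio 0.858). Without the first of these libraries the log2 fold change of Edn3 at P17 was -0.18 in place of -0.40, and without the second that at P24 was -0.11 in place of -0.28.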

How the results depend on the processing

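The fold change of Ednrb kept its direction in every alternative run, from 0.70 to 1.08 in IP and from 1.15 to 1.56 in Input libraries, from 1.18 to 1.35 at P24 and from 0.25 to 0.33 at P17. The number of the 6 genes passing in IP, 2, became 1 with no filter beyond 1 count and 0 when the TRAP-Seq libraries were all fitted together, and lay between 1 and 2 when single libraries were left out. The number passing in Input, 0, became 1 (Ednrb) with the likelihood ratio test, with DESeq2, with no filter and with one fit of all libraries, and lay between 0 and 1 when single libraries were left out, being 1 without cKO replicate 1. The cause was not tested. The counts for IP against Input kept to 3 in Ctrl and to 3 to 4 in cKO mice, and that of the interaction stayed at 0.

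The replicate block changed no call among the 6 genes (Ednrb in IP 0.86, adjusted p = 0.000606; in Input 1.25, adjusted p = 0.202). Over all genes it moved the number passing from 20 to 109 at P17, from 11 to 55 in the difference of ages, from 26 to 8 in Input and from 15 to 6 in the interaction. Every library correlated best with its own number in P17 bulk and in IP between genotypes. The controls were sex-matched littermates, but whether equal numbers mark littermates is not given in the sources used here. Every library also did so between Ctrl IP and Input, where the number marks the mouse.

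Leaving out single libraries turned the sign of some TRAP-Seq values that had not passed. The ranges were -0.30 to 0.022 for Ece1 in IP, -0.027 to 0.19 for Ece2 in Input, -0.62 to 0.056 for Edn3 and -0.21 to 0.038 for Ece2 in IP against Input in Ctrl mice, -0.54 to 0.20 for Edn3 in cKO mice, and in the interaction -0.54 to 0.0013 for Ednra, -0.21 to 0.56 for Edn3 and -0.069 to 0.34 for Ece1. In bulk cortex, where no test was used, they were -0.17 to 0.024 for Ednra and -0.34 to 0.089 for Edn1 at P17, -0.10 to 0.021 for Ece2 at P24 and -0.11 to 0.29 for Edn3 in the difference of the ages.

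Library size alone moved the IP median of all genes by -0.11 and the share of higher calls from 58.0% to 36.2%. Ednrb was then 0.73 and Ece2 -0.62, both past the threshold. In the interaction the share of higher calls was 66.7%, and 34.9% with DESeq2, 5 of 10 with RLE and 41.7% with library size. In Input it was 84.6%, and 94.5% with DESeq2. Counts over all genes ranged from 1684 to 6735 in IP (4782 as reported), 4 to 137 in Input (26), 3 to 432 in the interaction (15), 216 to 952 at P24 (388), 11 to 109 at P17 (20) and 4 to 149 in the difference (11), the highest of P24, the interaction and the difference without cKO replicate 1 of P24 bulk, Input and P24 bulk. One fit of all bulk libraries per age equals the reported fit. At the depth of the TRAP-Seq libraries, Edn1 and Edn3 rested on at most 28 counts, so small changes in them were not detectable.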
